A study of Mus musculus with 4 samples.

Results

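The cytosolic ribosomal protein genes of mouse blood stem and progenitor cells were described in 4 microarrays, by ribosomal subunit, by genotype and by the replicate number in the sample names. Members were taken by symbol: names that begin with Rpl or Rps and a digit, together with Rplp0 to Rplp2 and Rpsa, each measured by 1 probe set that carried a single gene symbol. Where a gene had several such probe sets, the one with the highest mean was kept. This gave 63 of 19938 genes, of which 38 encode or are named after proteins of the large subunit and 23 of the small subunit. The other 2, Rps19bp1 and Rps23rg1, match the symbol rule but encode no ribosomal protein. Of 89 protein-coding genes in the RefSeq table (GRCm38.p6) whose symbols match, 62 were measured. Rpl3, Rpl11 and Rps27 are among the 27 that were not, and 20 of those 27 lie on probe sets that carry several symbols.

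The arrays compare WT mice with Hif1a-/- mice, both of the C57BL/6 (B6) strain and 8 weeks old, with 2 arrays for each genotype. Hif1a encodes the subunit through which oxygen regulates the transcription factor HIF-1. The cells were sorted from bone marrow as Lin-c-Kit+Sca-1+, a population in which stem cells are mixed with multipotent progenitors. The labels name both samples of a genotype as biological replicates 1 and 2, but give neither the number of mice behind a sample, nor what ties the number 1 samples together, nor how or in which cells Hif1a was deleted. P-values below therefore measure only the spread between these samples. The arrays are called WT array 1, WT array 2, Hif1a-/- array 1 and Hif1a-/- array 2 after their labels.

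Each ribosomal protein is, with few exceptions, present once in every ribosome, and the mRNAs of these genes are among the most abundant in a growing cell. Many of them begin with a terminal oligopyrimidine (TOP) tract, through which the mTOR kinase controls their translation, so that mRNA level and protein output need not move together. Haematopoietic cells are sensitive to the supply of these proteins: loss of 1 copy of genes such as RPS19 or RPL26 underlies Diamond-Blackfan anaemia in humans, and unassembled Rpl5 and Rpl11 bind Mdm2 and thereby stabilise p53.

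All values below are log2 signals as deposited, and a difference is the Hif1a-/- mean minus the WT mean unless another is named. Over all probe sets the median signal of the 4 arrays was 8.31, 8.19, 8.32 and 8.35 in the order WT array 1, WT array 2, Hif1a-/- array 1 and Hif1a-/- array 2. The interquartile range was 2.61, 2.78, 2.60 and 2.49, widest in WT array 2 and narrowest in Hif1a-/- array 2. The Hif1a signal was 10.37, 10.99, 10.58 and 10.64, and its genotype difference was −0.08 (SE 0.24). Which part of the gene was deleted is not labelled, so this signal does not check the genotype labels. Of the stem and progenitor marker list, 13 of 15 genes were measured. Kit, part of the sort, read 12.57 and 11.51 in WT and 12.37 and 11.32 in Hif1a-/-. Ly6a, which encodes Sca-1, was not measured. The median over these markers was 11.09 and 11.03 in the arrays numbered 1 but 9.27 and 8.68 in the arrays numbered 2, while the median over 13 neutrophil granule genes was 10.14 and 9.92 in number 1 and 11.93 and 12.80 in number 2. In whole-population RNA, fewer cells of a type and less RNA per cell cannot be told apart.

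Ribosomal protein genes read slightly lower in the mean of the Hif1a-/- arrays, but no member passed the test. The difference was below 0 for 53 of 63 members and above 0 for 10, where 49.4% of all genes lay below 0. Its median over the members was −0.13, with the middle of the distribution between −0.19 and −0.04, against a median of 0.00 over all genes. The extremes were −0.47 for Rps4l and 0.17 for Rps23rg1. By limma with Benjamini-Hochberg adjustment over all 19938 genes, an adjusted p under 0.05 was reached by 0 members and by 0 genes in all (0% called). No adjusted p lay below 0.9998. Without adjustment, 145 genes (0.727%) and 0 members had a limma p under 0.05.

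The member differences were smaller than 4 arrays can resolve. The SE of a member's difference ran from 0.11 to 0.45, with a median of 0.14, and the interval that typifies a member (the median of the 95% bounds) reached from −0.50 to 0.28. For 22 of 63 members the difference lay within 0.1 of 0, and for 15 it lay below −0.2. Of all 19938 genes, 9564 lay within 0.1 of 0 and 2578 below −0.2. Both Hif1a-/- arrays lay below both WT arrays for 20 members, where 8.33% of all genes did so. The reverse held for 1 member, Rpl30, where 16.1% of all genes did so. Without the dimmest 40% of genes, the shares of the remaining genes were 9.59% below and 8.25% above.

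In the deposited values the lower means came mainly from the arrays numbered 2. Within number 1 the median difference over the members was −0.02, with 35 of 63 below 0, where 44.7% of all genes were below 0. Within number 2 the median was −0.23, with 53 of 63 below 0, where 49.0% of all genes were. The median of all genes within number 2 was 0.01. Without the dimmest 40% of genes, the median of the remaining genes was 0.01 within number 1 and −0.10 within number 2. For 27 members the difference was below 0 within both numbers, where 21.0% of all genes were. The number 2 difference was the more negative one for 50 of 63 members (79.4%) and for 52.4% of all genes. An interaction of genotype and number leaves no residual degrees of freedom with 4 arrays, so this contrast between the numbers was not tested.

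Read array by array, the members sat at similar levels in 2 arrays and apart in the other two. The median deviation of a member from its own mean over the 4 arrays was 0.02 in WT array 1, 0.08 in WT array 2, 0.02 in Hif1a-/- array 1 and −0.15 in Hif1a-/- array 2. Hif1a-/- array 2 was the lowest of the 4 arrays for 47 members, where it was lowest for 31.1% of all genes. WT array 2 was the highest for 34 members, where it was highest for 27.0% of all genes. Both held at once for 29 members, where both held for 11.4% of all genes. Hif1a-/- array 2 was the highest array for 7 of 63 members and for 5411 of all 19938 genes.

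**Figure D1:**
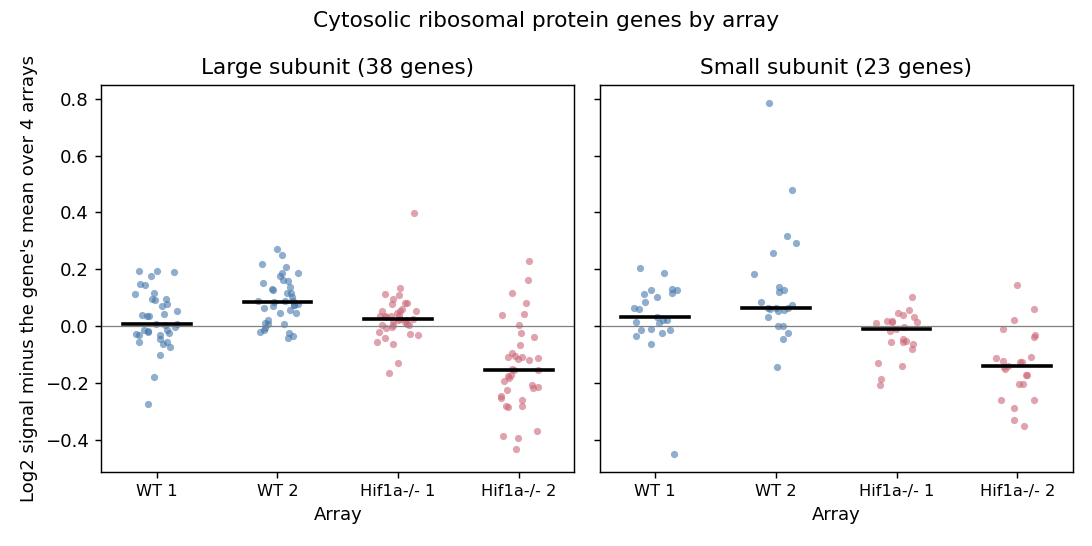
Deviation of each ribosomal protein gene from its own mean over the 4 arrays (vertical axis, log2 units), by array (horizontal axis), for the 38 large-subunit and 23 small-subunit genes, with 1 point per gene and a bar at the median. In both subunits the bar of Hif1a-/- array 2 is the lowest, at −0.15 for the large and −0.14 for the small subunit.

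Leaving out Hif1a-/- array 2 brought the median genotype difference of the members to −0.05, and leaving out Hif1a-/- array 1 brought it to −0.21. Without WT array 2 it was −0.09 and without WT array 1 it was −0.13. The 145 genes with an unadjusted limma p under 0.05 numbered 595 or 79 when WT array 1 or 2 was left out, and 622 or 57 when Hif1a-/- array 1 or 2 was left out. Of the members, 2 had such a p without WT array 1 and 2 without Hif1a-/- array 1. The scaling of the arrays mattered as much. Cyclic loess, which removes differences that run with signal level, gave a median of −0.05 over the members with 46 of 63 below 0, against −0.02 over all genes with 56.5% below 0. Under that scaling the members' median was −0.04 within number 1 and −0.06 within number 2, so the numbers were nearly alike, and the median of all genes within number 2 was −0.04. Under quantile normalization the median of the members was −0.09 with 51 of 63 below 0, against −0.05 for all genes. Under median centring it was −0.21 with 61 of 63 below 0, against −0.08. Within numbers 1 and 2 the members' medians were −0.03 and −0.16 under quantile normalization and −0.03 and −0.39 under median centring. The gap between the numbers thus stayed under those scalings. The median of all genes also fell, from 0.01 within number 1 to −0.10 within number 2 under quantile normalization. There the members' gap was close to that of all genes. Under median centring the median of all genes went from 0.01 to −0.16. Both Hif1a-/- arrays lay below both WT arrays for 13 members under quantile normalization, 31 under median centring and 15 under cyclic loess, where 14.99%, 18.6% and 12.7% of all genes did so. Without the dimmest 40% of genes, which left 60 of the members, 61.95% of the remaining genes lay below 0, with a median of −0.05.

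Promoter sequences were read from RefSeq (GRCm38.p6) for 49 of the 61 members that encode ribosomal proteins, as windows of 300 bases from 250 before to 50 after each annotated start. Sequences of 4 members are printed as examples, chosen by their signal. They are Rps6 as the flat member, Rpl26 and Rps19 as the canonical members with the most negative differences, and Rps27l as the member with the widest spread. Each shows 80 bases before and 20 after the most upstream annotated start, 5′ to 3′ on the gene's strand, with capitals for a TOP-like run, the ETS and GABP motif CCGGAAG or the HIF core ACGTG or GCGTG. The windows are chr4:86857348-86857447 (minus strand) for Rps6, chr11:68901486-68901585 (plus) for Rpl26, chr7:24884512-24884611 (plus) for Rps19 and chr9:66946006-66946105 (plus) for Rps27l.
Rps6: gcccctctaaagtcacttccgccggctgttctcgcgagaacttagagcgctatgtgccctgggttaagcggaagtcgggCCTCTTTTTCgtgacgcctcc
Rpl26: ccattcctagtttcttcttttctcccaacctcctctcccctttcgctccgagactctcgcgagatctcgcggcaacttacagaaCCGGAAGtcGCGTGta
Rps19: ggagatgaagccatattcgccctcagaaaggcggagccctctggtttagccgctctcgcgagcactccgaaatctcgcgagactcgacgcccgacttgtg
Rps27l: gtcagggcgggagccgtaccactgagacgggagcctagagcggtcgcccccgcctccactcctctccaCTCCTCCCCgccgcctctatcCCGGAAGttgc

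In Rps6 a pyrimidine run of 10 bases lies across the start, the arrangement known from TOP mRNAs. Rpl26 holds the ETS motif and a HIF core just after the start, Rps27l holds a run of 9 before the start and the ETS motif after it, and the Rps19 window from its first start holds none of the motifs in capitals. A TOP-like run, meaning a C followed by at least 5 pyrimidines between 20 before and 30 after a start on the gene's strand, was found for 34 of 49 members (69.4%) and 37.8% of all genes in the table. CCGGAAG on either strand was found for 19 members (38.8%) and 9.93% of all genes. GCCATCT, the YY1 motif, was found for 6 members (12.2%) and 7.31% of all genes on either strand. ACGTG or GCGTG on either strand was found for 36 members (73.5%) and 46.7% of all genes.

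The members with and without each motif had close genotype differences. The median was −0.13 with and −0.12 without a TOP-like run, −0.15 with and −0.10 without CCGGAAG, −0.18 with and −0.12 without GCCATCT, and −0.13 with and −0.15 without a HIF core. No test was made of these gaps. A match describes letters in a window and not a bound site.

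Of the small-subunit genes, 22 of 23 read lower in the mean and 1 read higher, with a median difference of −0.13. Their median was −0.08 within number 1, with 17 of 23 below 0, and −0.24 within number 2, with 19 of 23 below 0. Both Hif1a-/- arrays lay below both WT arrays for 10 of them, where 8.33% of all genes did so.

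Rps19, a small-subunit protein needed for maturation of the small subunit and the gene most often mutated in Diamond-Blackfan anaemia, had the smallest p-value of all members. It read 11.90 in WT array 1, 12.03 in WT array 2, 11.71 in Hif1a-/- array 1 and 11.44 in Hif1a-/- array 2. Both Hif1a-/- arrays were below both WT arrays. The difference was −0.39 (SE 0.15, 95% interval −0.81 to 0.03), a WT level 1.31-fold the Hif1a-/- level, with a limma p of 0.0620 and an adjusted p of 0.9998. It was −0.19 within number 1 and −0.59 within number 2, and −0.25 without Hif1a-/- array 2.

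Rps4l, a paralogue of Rps4x, had the most negative difference of the members. Its signal was 9.19 and 9.69 in WT, then 9.001 and 8.95 in Hif1a-/-. WT array 2 stood above the other three, and the genotypes did not overlap. The difference was −0.47 (SE 0.21, 95% interval −1.04 to 0.10), 1.38-fold. Rps4x itself, the X-linked small-subunit gene, read 13.11 and 13.05 in WT and 13.03 and 12.79 in Hif1a-/-, a difference of −0.17.

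Rps27l, a paralogue of Rps27 and a p53 target, was the member with the widest spread within a genotype. It read 10.99 in WT array 1 and 12.23 in WT array 2, then 11.31 and 11.24 in the Hif1a-/- arrays. The Hif1a-/- arrays lay between the WT arrays. The difference of −0.34 had an SE of 0.45 and turned to 0.28 without WT array 2. Within number 2, the WT level was 1.99-fold the Hif1a-/- level.

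Among other small-subunit genes, Rps13 read 11.49 and 11.83 in WT and 11.57 and 11.16 in Hif1a-/-. Its difference of −0.29 (SE 0.22) was made of 0.08 within number 1 and −0.67 within number 2. Rpsa, also known as the laminin receptor, read 13.09 and 12.93 in WT and 12.86 and 12.73 in Hif1a-/-. Here the step was alike within number 1, at −0.23, and number 2, at −0.20, and the genotypes did not overlap. Rps14, whose loss contributes to anaemia in a human myelodysplastic syndrome, read 13.02 and 12.97 in WT and 12.89 and 12.73 in Hif1a-/-, with a difference of −0.18 (SE 0.12). Rps29, a small zinc-binding protein of the subunit's head and another Diamond-Blackfan gene, read 12.67 and 12.74 in WT and 12.54 and 12.48 in Hif1a-/-, with a difference of −0.19 (SE 0.11).

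Rps6, the substrate of S6 kinase and the gene with the pyrimidine run across its start, stood at nearly the same signal on all arrays. It read 13.93 in WT array 1, 13.91 in WT array 2, 13.93 in Hif1a-/- array 1 and 13.87 in Hif1a-/- array 2. The difference of −0.02 (SE 0.11) had a 95% interval of −0.32 to 0.28, so a shift the size of the members' median was within reach of the error. Rps3, which lines the mRNA entry channel, differed by −0.02 and Rps9 by −0.04. Rps12, at 0.00 (SE 0.15), was the 1 small-subunit gene on the higher side. It read 12.73 and 12.86 in WT and 12.65 and 12.94 in Hif1a-/-, so its lowest and its highest array were both Hif1a-/-. Rps12 is represented by 14 probe sets, whose differences ran from −0.13 to 0.00.

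**Figure D2:**
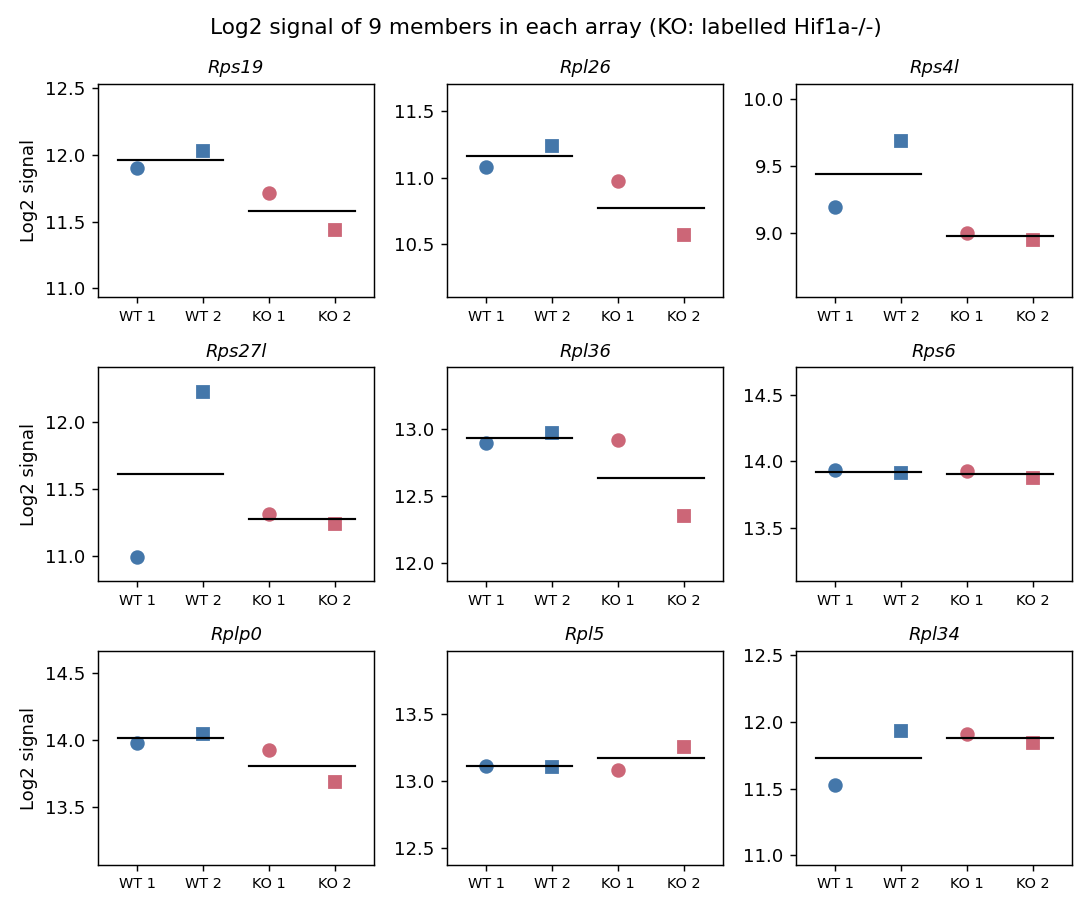
Log2 signal (vertical axis) of Rps19, Rpl26, Rps4l, Rps27l, Rpl36, Rps6, Rplp0, Rpl5 and Rpl34 in each of the 4 arrays (horizontal axis), with circles for number 1, squares for number 2 and a bar at each genotype mean. Every panel spans the same log2 range. Rps19, Rpl26, Rps4l and Rplp0 show both Hif1a-/- arrays below both WT arrays, and Rps27l shows WT array 2 at 12.23 apart from the other three.

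Of the large-subunit genes, 30 of 38 read lower in the mean and 8 higher, with a median difference of −0.12. The median was 0.01 within number 1, with 17 of 38 below 0, and −0.24 within number 2, with 33 of 38 below 0. Both Hif1a-/- arrays lay below both WT arrays for 10 of them, where 8.33% of all genes did so. They lay above for Rpl30 alone, where 16.1% of all genes did so, and 8.25% of genes without the dimmest 40%.

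Rpl26, which in addition to its place in the ribosome binds the p53 mRNA, had the most negative difference of the large-subunit genes. It read 11.08 in WT array 1, 11.24 in WT array 2, 10.97 in Hif1a-/- array 1 and 10.57 in Hif1a-/- array 2. The genotypes did not overlap, and the gap within number 2 (−0.67) was wider than within number 1 (−0.11). The difference of −0.39 (SE 0.19) corresponds to 1.31-fold and had a limma p of 0.106 and an adjusted p of 0.9998.

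Rpl36 and Rpl7l1 followed the same array-by-array course. Rpl36 read 12.90 and 12.97 in WT and 12.92 and 12.35 in Hif1a-/-, so that Hif1a-/- array 2 alone was low. Its difference was −0.30 (SE 0.23), made of 0.02 within number 1 and −0.62 within number 2. Rpl7l1, a paralogue of Rpl7 with a part in assembly of the large subunit, read 11.99 and 12.19 in WT and 12.04 and 11.56 in Hif1a-/-, with 0.05 within number 1 and −0.64 within number 2. Hif1a-/- array 2 was again the low one.

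Rpl13 and Rpl7 were lower within both numbers. Rpl13 read 12.29 and 12.18 in WT and 12.10 and 11.81 in Hif1a-/-, with differences of −0.19 within number 1 and −0.37 within number 2. Rpl7 read 12.80 and 12.71 in WT and 12.59 and 12.41 in Hif1a-/-, with −0.22 and −0.29. For both genes the genotypes did not overlap, and the differences were −0.28 (SE 0.15) and −0.25 (SE 0.13). Rpl22, which is dispensable for most translation but needed for lymphocyte development, read 10.15 and 10.14 in WT and 10.04 and 9.95 in Hif1a-/-, a difference of −0.15 (SE 0.11). Rpl38, known for its role in translation of Hox mRNAs in the embryo, read 13.12 and 13.25 in WT and 13.14 and 12.84 in Hif1a-/-, so its arrays overlapped.

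The acidic stalk recruits translation factors to the large subunit and consists of Rplp0, Rplp1 and Rplp2. All 3 read lower in the mean, with a median of −0.12. Rplp0, the base of the stalk and often used as a reference gene, read 13.98 and 14.05 in WT and 13.93 and 13.69 in Hif1a-/-, a difference of −0.21 (SE 0.14) without overlap. Rplp1 read 13.91 and 14.01 in WT and 13.92 and 13.86 in Hif1a-/-. Rplp2 read 8.64 and 8.78 in WT and 8.69 and 8.50 in Hif1a-/-. Differences were −0.07 for Rplp1 and −0.12 for Rplp2, and both overlapped.

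The members above 0 were mostly large-subunit genes with small differences. Rpl34 read 11.53 in WT array 1 but 11.93, 11.91 and 11.84 in WT array 2, Hif1a-/- array 1 and Hif1a-/- array 2, so its difference of 0.15 (SE 0.18) rested on WT array 1. Rpl5, which with Rpl11 and the 5S RNA forms the particle that binds Mdm2, read 13.11 and 13.10 in WT and 13.08 and 13.26 in Hif1a-/-, a difference of 0.06 (SE 0.12). Rpl30, the 1 member with both Hif1a-/- arrays above both WT arrays, read 9.78 and 9.85 in WT and 9.85 and 9.88 in Hif1a-/-, a difference of 0.05 (SE 0.11). Rpl5 and Rpl30 turned to −0.02 and −0.03 under median centring. Rpl12, part of the stalk base, read 9.75 and 9.79 in WT and 10.18 and 9.41 in Hif1a-/-, so the Hif1a-/- arrays were its highest and its lowest. Its difference of 0.03 had an SE of 0.29.

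Tissue-restricted or duplicated paralogues made up 7 of the members (Rpl10l, Rpl32l, Rpl39l, Rpl3l, Rpl7l1, Rps27l and Rps4l), and 6 of them read lower in the mean. Their median was 0.07 within number 1 and −0.44 within number 2. Rpl10l, the testis paralogue of Rpl10, differed by −0.03, and Rpl10 by −0.08. Rpl39l, also known from testis, read 5.97 and 5.73 in WT and 5.82 and 5.58 in Hif1a-/-, a difference of −0.15. Rpl3l, the heart and skeletal muscle paralogue of Rpl3, read 7.06 and 7.21 in WT and 7.22 and 7.17 in Hif1a-/-. Its difference of 0.06 was on the other side of 0 under quantile normalization, median centring and cyclic loess. Without the 7 paralogues the median of the members stayed at −0.13, with 47 of 56 below 0.

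**Figure D3:**
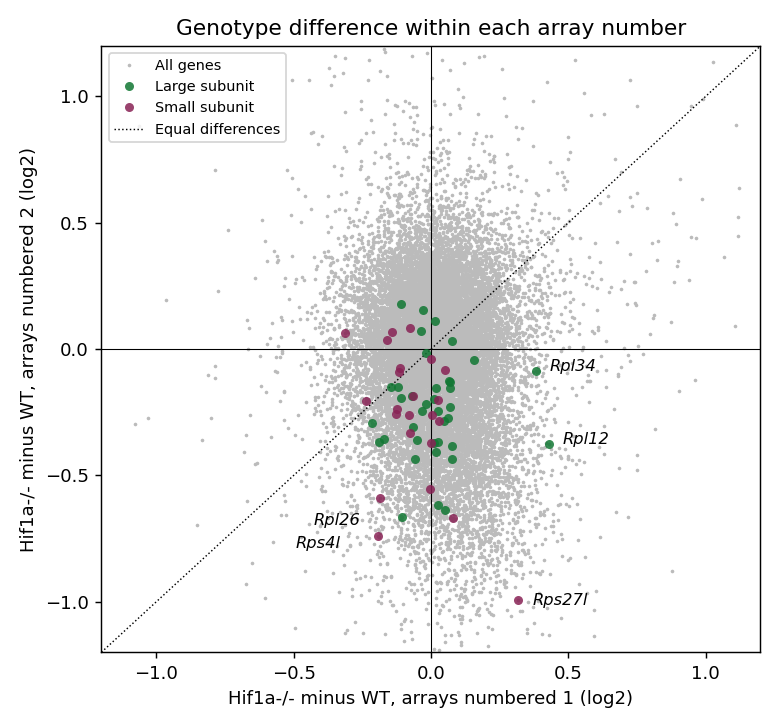
Genotype difference within the arrays numbered 1 (horizontal axis, log2) against that within the arrays numbered 2 (vertical axis, log2), with 1 point per gene, all genes in grey and ribosomal protein genes in colour by subunit; 91 genes and 0 members lie outside the plotted range. The coloured points spread around 0 on the horizontal axis and mostly lie below 0 on the vertical axis, with medians of −0.02 and −0.23.

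The choice of probe set changed little in the members' direction. A total of 39 members had more than 1 single-symbol probe set, and the range of the genotype difference over a member's probe sets had a median of 0.05. The widest was Rpl7a, from −0.35 to −0.11. The probe sets of 4 members differed in sign. Rplp2, Rpl12, Rpl14 and Rpl30 each had 1 single-symbol probe set, with mean signals of 8.65, 9.78, 9.77 and 9.84. Rplp0 had a mean signal of 13.91. Whether the dimmer probe sets represent the main transcript of their gene was not tested. Over all 219 single-symbol probe sets of the members, 193 read lower and the median was −0.14. Ribosomal protein genes have many processed pseudogenes of near-identical sequence, so the signal of a probe set may include transcripts of more than 1 locus. The 239 probe sets that carry several symbols, at least 1 of them matching the rule, were not used above. They had a median of −0.14, with 228 lower. They include probe sets of genes that were not measured as members, such as Rpl3 and Rpl11.

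Comparing the arrays numbered 2 with those numbered 1 across genotypes, the members differed little on average. The median difference, number 2 minus number 1, was −0.04 over the members and −0.02 over all genes, with 41 members below 0 and 22 above. By limma with adjustment over all genes, 0 members passed an adjusted p of 0.05, while 1344 genes (6.74%) did, 3.81% higher and 2.93% lower in number 2. Without adjustment, 3887 genes (19.5%) and 1 member, Rpl14, had a limma p under 0.05. This large-subunit gene read 9.59 and 9.60 in the arrays numbered 1 and 9.88 and 9.996 in those numbered 2, a difference of 0.34 (SE 0.11) with a limma p of 0.0230 and an adjusted p of 0.159. Its number 2 arrays lay above its number 1 arrays in both genotypes.

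As deposited, the average over the numbers combined shifts of opposite sign in the genotypes. Median centring kept them, while cyclic loess and quantile normalization did not. In WT the median of number 2 minus number 1 was 0.06 and 21 of 63 members were below 0, where 52.5% of all genes were. In Hif1a-/- it was −0.15 and 53 of 63 members were below 0, where 55.4% of all genes were. The WT median turned to −0.049 under cyclic loess, beside −0.052 in Hif1a-/-, and to −0.013 under quantile normalization, beside −0.13. Under median centring it was 0.18, beside −0.19 in Hif1a-/-. Both number 2 arrays lay above both number 1 arrays for 4 members, Rpl14, Rps12, Rpl37a and Rpl41, where 20.4% of all genes did so. They lay below for 8 members, where 27.2% of all genes did so, among them Rps15a at −0.25 and Rpl10a at −0.26. The most negative difference was that of Rpl12, at −0.36, and the most positive that of Rps27l, at 0.58.

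The number comparison depended on which array was present. Without WT array 2 the median of the members was −0.15, with 49 of 63 below 0. Over all genes it was −0.01, with 52.76% below 0. In that fit Rpl36 differed by −0.56, Rps13 by −0.37 and Rpl14 by 0.40. Without Hif1a-/- array 2 the median of the members was 0.06, with 16 of 63 below 0. Over all genes it was −0.03, with 55.14% below 0. Rps27l then differed by 1.08 and Rps4l by 0.59. The members' median was −0.03 without WT array 1 and −0.04 without Hif1a-/- array 1. In each of these fits 1 group is a single array, which is assumed to vary like the other group.

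In the same number comparison 7 of the 13 measured stem and progenitor markers fell in number 2, with a median of −1.06 over the list, and 9 of 13 neutrophil granule genes rose, with a median of 1.82, at an adjusted p under 0.05 by limma. Of the mast cell and basophil list 7 of 11 genes rose in number 2, and of the monocyte and macrophage list 7 of 9, by the same test. Over all genes 3.81% rose and 2.93% fell in number 2 at that threshold. Between genotypes the neutrophil list differed by a median of −0.22 within number 1 and 0.91 within number 2. The list was not uniform within number 2, where Mpo, Elane, Prtn3 and Ctsg, 4 of the 13 genes, read lower in Hif1a-/-. Their differences were −0.25, −0.28, −0.47 and −0.51. Within number 1, 12 of the 13 read lower. Of all genes 49.0% read lower within number 2 and 44.7% within number 1. Cd34, a marker of progenitors, read 13.33 and 12.46 in WT and 13.30 and 10.92 in Hif1a-/-, lowest in Hif1a-/- array 2. The list with the largest median difference between genotypes was that of the B lineage, at 0.90 over 12 genes, made of 1.06 within number 1 and 0.72 within number 2. Its median signal was 9.94 and 9.69 in WT and 10.64 and 10.42 in Hif1a-/-. Both Hif1a-/- arrays lay above both WT arrays for 8 of the 12 genes and below for 2, Ighm at −1.41 and Jchain at −1.45. Over all genes they lay above for 16.1% and below for 8.33%. By limma 8 of the 12 had an unadjusted p under 0.05, where 0.727% of all genes did, and 0 an adjusted one. The part of these cell-type markers in the values of the ribosomal protein genes was not tested.

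As deposited, groups of genes that build and run the ribosome also read lower in the mean of the Hif1a-/- arrays. Some of these groups differed from the members array by array, while RNA polymerase I genes were close to them. Median deviations from a gene's own mean were 0.04, 0.09, 0.04 and −0.18 for RNA polymerase I genes, in the array order used above. The members had 0.02, 0.08, 0.02 and −0.15. Of all genes 49.4% read lower as deposited, and 61.95% did without the dimmest 40% of genes. That share was 56.5% under cyclic loess, 63.96% under quantile normalization and 72.1% under median centring. The groups were not read under those scalings. Of 77 mitochondrial ribosomal protein genes, which serve the separate ribosome of mitochondria, 73 read lower and 4 higher, with a median of −0.21, made of 0.15 within number 1 and −0.53 within number 2. Their median deviation from a gene's own mean was −0.17, 0.37, −0.02 and −0.20 in WT array 1, WT array 2, Hif1a-/- array 1 and Hif1a-/- array 2, so WT array 2 stood out more than in the members, and 68 of 77 were higher in number 2. Examples are Mrps17 at −0.43, Mrpl9 at −0.27 and Mrps21 at 0.23. Of 64 listed ribosome assembly factors 61 were measured, and all 61 read lower, with a median of −0.23, made of 0.10 within number 1 and −0.58 within number 2. Rrs1, needed for assembly of the 5S particle that holds Rpl5, was the 1 assembly factor with an unadjusted limma p under 0.05, at 0.0366 (adjusted p 0.9998). It read 8.86 and 9.15 in WT and 8.57 and 8.17 in Hif1a-/-, a difference of −0.63 (SE 0.20).

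Subunits and factors of RNA polymerase I, which transcribes the large ribosomal RNA precursor, read lower for 11 of 12, with a median of −0.11; Polr1e differed by −0.56. Initiation factors read lower for 24 of 26, with a median of −0.19 and values of −0.39 for Eif3i, −0.37 for Eif3e and 0.19 for Eif4a2. Elongation and termination factors read lower for 10 of 11, with a median of −0.17; Eef1b2 differed by −0.21 and Eif5a by 0.06. Genes of mTOR and S6 kinase signalling, upstream of TOP mRNA translation, read lower for 13 of 18, with a median of −0.05. Of 12 measured genes of the p53 response, 6 read lower and 6 higher, with Mdm2 at 0.28 and Ccng1 at −0.19. Of 5 measured genes for ribosomal fusion proteins or ribosome-associated factors, 3 read lower and 2 higher, with Fau at −0.13, Naca at −0.14 and Nap1l1 at 0.11. By limma no gene of these lists had an adjusted p under 0.05 between genotypes.

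**Figure D4:**
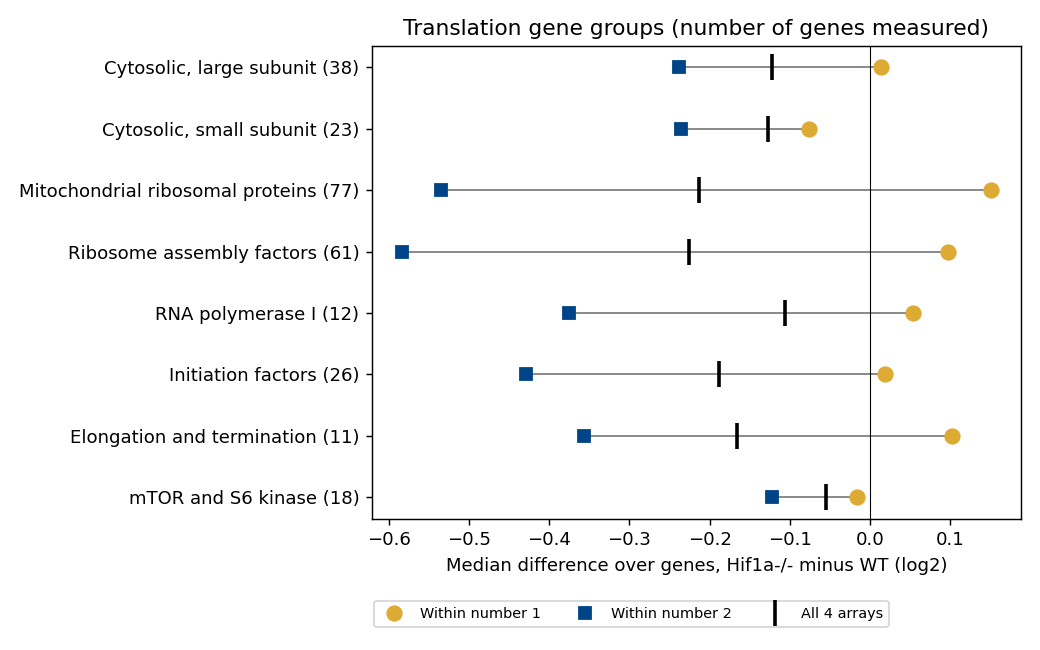
Median genotype difference (horizontal axis, log2) over the measured genes of 8 groups (rows, with the number of genes), within number 1 (circles), within number 2 (squares) and over all 4 arrays (bars). In every group shown the square lies left of the circle, and the gap is wider for ribosome assembly factors (0.10 and −0.58) than for small-subunit genes (−0.08 and −0.24).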

How the data were processed

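Total RNA of the 4 samples was amplified with random hexamers and hybridised to Affymetrix whole-transcript arrays, as the labels' protocols state. The table the authors deposited holds log2 values for 35556 probe sets, from 3.08 to 14.88. The submitters' processing notes name RMA and Affymetrix Expression Console 1.1. RMA commonly brings the arrays' probes to one distribution, so a shift shared by all genes would not be measured, yet medians and spreads of the probe set values still differed between arrays. Symbols came from the platform annotation: 21789 probe sets had 1 symbol, 1621 several, and 12146 were not listed.

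From these values each gene's probe set with the highest mean was kept, and 6 Rps6k symbols and 2 symbols with -ps were dropped. Genotype and number differences were fitted separately with limma 3.58.1 (lmFit, eBayes) in R 4.3.3, two-sided, with Benjamini-Hochberg adjustment over 19938 genes and a threshold of 0.05. The fit was tested on simulated data. Members and gene lists were chosen with earlier results of these data known. Gene lists and members are described by counts and medians, with no set test. The genes named are the members with the most extreme differences per subunit, those whose groups did not overlap with the smallest p, textbook members and paralogues, and the 2 genes per direction with the smallest p in each list. Rpl41, Rpl7a and Cd34 were added after their values were seen. The number of arrays limits the precision. Alternatives covered the scaling, the filter on dim genes, the probe set per gene, the variance model, a block for the number and leaving out arrays.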

Additional observations from a re-analysis of the deposited data

Results flagged for a closer look

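Rpl12 and Rps27l stood out because their genotype differences had opposite signs of more than 0.3 within the numbers. For Rpl12 the difference was 0.43 within number 1 and −0.38 within number 2. For Rps27l it was 0.32 within number 1 and −0.99 within number 2. Each of these values rests on 1 array per genotype, and the difference between the numbers was not tested. Without Hif1a-/- array 1 the genotype difference of Rpl12 turned from 0.03 to −0.36, and without WT array 2 that of Rps27l turned from −0.34 to 0.28.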

How the results depend on the processing

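With 4 arrays, no member and no gene had an adjusted p under 0.05 between genotypes by limma under any alternative. The median of the members stayed below 0 throughout: −0.21 under median centring, −0.09 under quantile normalization, −0.053 under cyclic loess and −0.21 to −0.0498 when arrays were left out. The number median was 0.0056 under median centring and −0.15 to 0.0597 with arrays left out, where 25.4% to 77.8% of members were below 0, 0 to 10 members were called and 319 to 4661 genes were called; median centring called 667 genes. The labels do not say whether the numbers pair the samples, and 2 pairs cannot show it. With a replicate block the genotype median was −0.13, 478 genes, 1 of them a member, had an unadjusted p under 0.05 and 0 an adjusted one (smallest 0.536). Leaving out the 2 genes that encode no ribosomal protein, chosen after seeing the data, gave −0.13.

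Of single genes, the genotype difference changed sign under quantile normalization for Rpl3l (−0.057), Rps3 (0.032) and Rps9 (0.014), and under median centring for Rpl12 (−0.06), Rpl14 (−0.024), Rpl30 (−0.032), Rpl37a (−0.054), Rpl3l (−0.030), Rpl5 (−0.024) and Rps12 (−0.0835). It did so under cyclic loess for Rpl3l (−0.033), Rplp1 (0.0010), Rps15a (0.012), Rps3 (0.0665), Rps6 (0.049) and Rps9 (0.049), and with averaged probe sets for Rps12 (−0.039). With arrays left out it ran from −0.32 to 0.044 for Rpl10a, −0.12 to 0.057 for Rpl10l, −0.36 to 0.41 for Rpl12, −0.13 to 0.26 for Rpl14, −0.053 to 0.35 for Rpl34, −0.11 to 0.18 for Rpl37a, −0.0175 to 0.13 for Rpl3l, −0.024 to 0.15 for Rpl5, −0.14 to 0.15 for Rps12, −0.24 to 0.11 for Rps15a, −0.38 to 0.0084 for Rps18, −0.96 to 0.28 for Rps27l, −0.061 to 0.0285 for Rps3, −0.048 to 0.0091 for Rps6 and −0.10 to 0.029 for Rps9. The number difference ran from −0.025 to 0.36 for Rpl34, −0.56 to 0.062 for Rpl36 and −0.15 to 0.59 for Rps4l. The cause was not tested.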
